A study of Mus musculus with 12 samples.

Results

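The 40 genes described here act in the cell division cycle, 18 of them in S phase, when DNA is copied, and 22 in G2 and mitosis (G2/M), when the copied chromosomes are checked and shared between daughter cells. They were chosen by name from genes known for these roles, with earlier results of these data known. All 40 were found among the 41388 genes of the deposited tables. All 40 also passed the filter on low counts, which left 12914 genes for testing. The S phase members were grouped by role as replicative helicase, origin licensing, nucleotide supply, clamp and chromatin copying, and G1/S switch. The G2/M members were grouped as cyclins with CDK1, mitotic and checkpoint kinases, anaphase-promoting complex, kinetochore and passenger complex, spindle and cytokinesis, and chromosome structure.

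RNA sequencing was done on mouse peritoneal macrophages drawn into the abdominal cavity by thioglycolate, an irritant, harvested on day 4 and plated. The next day the cells received vehicle (BSA with PBS) or 250 uM palmitate, a saturated fatty acid, with 100 ng/ml LPS, a bacterial endotoxin, and RNA was taken after 8 h. All mice carried Cre under LysM, a driver of myeloid cells, either alone (controls) or with the gene for the nuclear receptor PPARg labelled as knocked out (labelled knockouts). Each of the 4 groups had 3 libraries, 12 in all, of 17960457 to 22696385 counts. The labels do not say whether the libraries of a group came from separate mice or cultures, so p-values measure only the spread between these libraries. Palmitate and LPS were always given together, so their parts cannot be told apart.

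The counts of Pparg, the targeted gene, went against the knockout label. In vehicle they were 1669, 1608 and 1207 in the controls and 2125, 2286 and 2326 in the labelled knockouts. After palmitate plus LPS they were 69, 53 and 80 in the controls and 61, 93 and 90 in the labelled knockouts. A count per gene also holds exons outside a deleted part and does not check the deletion, so every genotype direction given here is that of the libraries as labelled. The summed level of 9 macrophage markers lay between 6563 and 8093 CPM in the group means (CPM, counts scaled by library size and by edgeR's TMM factors between libraries). Cd68 made up most of that sum, at 4954 CPM in control vehicle libraries. Single markers moved both ways. After treatment in controls 5 were called higher and 2 lower (edgeR's quasi-likelihood test, adjusted p under 0.05), against 32.0% and 34.7% of all genes. Csf1r went from 620 to 362 CPM there and Cd14 from 270 to 2090. Between genotypes after treatment 3 were called higher and 2 lower in the labelled knockouts, where 16.1% of all genes were called. Labelled knockout vehicle library 1 stood apart from its group on the second principal component of all tested genes, at 31.8 against -6.93 and -10.04.

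A cell that enters the cycle switches on cyclin E and the E2F factors, which turn on the genes that copy DNA; later the cyclin B and CDK1 kinase and the genes of mitosis follow. Cells at rest hold both sets of genes down through repressor complexes that include the RB family and the DREAM complex, which binds the CHR element of many G2/M promoters and E2F letters in many S phase promoters. Macrophages drawn into an inflamed cavity are mostly non-dividing cells, and LPS is known in cultured macrophages to hold back division. In bulk RNA, fewer cells of a type and less RNA per cell cannot be told apart, and the transcript of a cell cycle gene is not a measure of division.

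Promoter windows from RefSeq (mouse build GRCm38.p6), 250 bases before to 50 after the start of each gene, were found for 33 of the 40 members. Gins2, Aurkb, Mcm4, Ccne2, Ccna2, Kif20a and Tpx2 had none. The windows of Ccne1 and of the leading G2/M members Mki67 and Arhgap19 are shown because these genes moved most by p-value in their phase. Those of Mcm6, which rose, and Rrm1, which fell, were added after the motif matches were seen, because they carry E2F letters. Each is printed 5′ to 3′ on the strand of the gene, and capitals mark matches on either strand to the CCAAT box (CCAAT), the CHR (TTTGAA or TTCGAA) or the E2F letters (TTCCCGC or TTCGCGC or TTGGCGC or TTGCCGC).
Ccne1, chr7:38107441-38107740, minus strand: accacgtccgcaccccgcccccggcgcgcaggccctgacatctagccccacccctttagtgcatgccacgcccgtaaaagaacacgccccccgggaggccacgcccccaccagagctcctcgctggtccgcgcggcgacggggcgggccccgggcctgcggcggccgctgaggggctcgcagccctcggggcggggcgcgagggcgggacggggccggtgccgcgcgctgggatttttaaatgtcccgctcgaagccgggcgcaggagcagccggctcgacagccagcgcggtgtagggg
Mcm6, chr1:128359656-128359955, minus strand: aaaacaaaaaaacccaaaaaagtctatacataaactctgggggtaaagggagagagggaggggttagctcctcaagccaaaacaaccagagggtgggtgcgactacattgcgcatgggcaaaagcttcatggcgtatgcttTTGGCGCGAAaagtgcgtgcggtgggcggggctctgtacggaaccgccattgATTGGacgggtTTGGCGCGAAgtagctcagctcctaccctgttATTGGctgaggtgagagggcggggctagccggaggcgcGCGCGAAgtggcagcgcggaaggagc
Rrm1, chr7:102441445-102441744, plus strand: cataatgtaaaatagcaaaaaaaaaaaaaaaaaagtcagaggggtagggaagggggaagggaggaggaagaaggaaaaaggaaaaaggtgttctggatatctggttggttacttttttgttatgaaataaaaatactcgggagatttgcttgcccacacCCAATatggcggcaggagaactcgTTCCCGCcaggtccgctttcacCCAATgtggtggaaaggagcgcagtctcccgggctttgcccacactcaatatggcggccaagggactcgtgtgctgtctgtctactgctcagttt
Mki67, chr7:135716330-135716629, minus strand: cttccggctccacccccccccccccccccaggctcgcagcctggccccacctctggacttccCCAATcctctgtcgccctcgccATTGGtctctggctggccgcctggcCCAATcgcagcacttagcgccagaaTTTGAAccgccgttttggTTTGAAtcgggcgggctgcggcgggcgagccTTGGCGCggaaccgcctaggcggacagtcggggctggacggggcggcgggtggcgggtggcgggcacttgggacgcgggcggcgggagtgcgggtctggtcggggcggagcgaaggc
Arhgap19, chr19:41802035-41802334, minus strand: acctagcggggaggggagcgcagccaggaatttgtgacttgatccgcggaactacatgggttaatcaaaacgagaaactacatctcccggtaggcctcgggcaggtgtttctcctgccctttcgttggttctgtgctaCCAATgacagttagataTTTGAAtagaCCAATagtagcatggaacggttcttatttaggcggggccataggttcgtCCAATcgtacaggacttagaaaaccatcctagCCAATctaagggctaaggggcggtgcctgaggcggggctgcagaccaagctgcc

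The 2 phases differed in these letters. A CHR was found in 14 of the 18 G2/M windows and in 2 of the 15 S phase windows, against 21.7% of the 27025 genes in the table. All 14 of those G2/M windows also held a CCAAT box, a pair found in 9.65% of all genes. E2F letters were found in 9 of the 15 S phase windows and 3 of the 18 G2/M windows, against 10.9% of all genes. The Mki67 window held a CHR starting 116 and another starting 98 bases before the start, and 3 CCAAT boxes further upstream. The Arhgap19 window held a single CHR, starting 95 bases before the start, among 4 CCAAT boxes. In Mcm6 the E2F letters of the opposite strands overlapped, starting 109 and 106 and again 46 and 43 bases before the start. Of the 14 G2/M members with a CHR, 10 fell, 1 rose (Mki67) and 3 did not pass the test after palmitate plus LPS in controls (edgeR's quasi-likelihood test, adjusted over all genes, p under 0.05), and the counts were the same in the labelled knockouts; of the 4 without one, 1 fell in controls and 4 in the labelled knockouts. Of the 9 S phase members with E2F letters, 7 fell and 1 rose (Mcm6) in controls, and 5 fell and 1 rose in the labelled knockouts. Of the 6 without them, 4 fell and 2 rose in both genotypes. Over all genes tested, 34.7% were called lower and 32.0% higher in controls, and 35.6% and 33.7% in the labelled knockouts. The Ccne1 window held none of the letters searched. The table's window of E2f1 lies inside the gene as the deposited tables place it and is not printed. A match is a description of letters and not a bound site.

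Levels were compared between genes as CPM per kilobase of exon. The highest mean level over the 12 libraries was that of Pcna, the sliding clamp of DNA polymerase, at 16.4 CPM per kb, followed by the helicase subunit gene Mcm6 at 10.9 and by Cdt1, which loads the helicase at origins, at 8.76. S phase members took 8 of the 10 highest places, and Tpx2 and Arhgap19 were the only G2/M members among them. The median member of the S phase set lay at 2.59 CPM per kb in control vehicle libraries and 2.73 after palmitate plus LPS. Different genes held the middle rank in these groups, as Ccne1 rose past it from 0.749 to 4.09 CPM per kb and Tyms from 1.76 to 3.12. Of the 18 S phase members, 13 were called lower and 3 higher between these groups. The median G2/M member lay at 0.822 and 0.457 CPM per kb in the same groups. The lowest were Ccna2 at 0.178 CPM per kb and Cenpf at 0.0738, and single libraries held as few as 1 count of Cenpf.

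Most members of both phases fell after palmitate plus LPS in the controls. Of the 18 S phase members 13 fell, 3 rose and 2 did not pass the test, and of the 22 G2/M members 14 fell, 2 rose and 6 did not pass (edgeR's quasi-likelihood test, adjusted p under 0.05). Over all 12914 genes tested, 34.7% were called lower and 32.0% higher in this comparison, against 72.2% lower in the S phase set and 63.6% in the G2/M set. The members and the other lists below were chosen with earlier results of these data known. The distance from all genes is therefore a description and not an independent result. The median log2 change was -0.61 for the S phase members, -0.73 for the G2/M members and -0.05 for all genes. In the labelled knockouts 10 S phase members fell, 3 rose and 5 did not pass, and 16 G2/M members fell, 2 rose and 4 did not pass, where 35.6% of all genes were called lower and 33.7% higher. There the medians were -0.48, -0.96 and -0.06 on the log2 scale. Calls in either direction took in 66.7% of all genes in controls and 69.4% in the labelled knockouts. Vehicle and treated libraries did not overlap for 34 of the 40 members in controls, against 74.8% of all genes, and for 33 members in the labelled knockouts, against 70.4%. No test was made of the difference between the phases.

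The responses of both genotypes share no library. The 5 members that rose were the same in both genotypes: Ccne1, Mcm6, Tyms, Mki67 and Tpx2. Of the 27 members that fell in controls, 22 (81.5%) also fell in the labelled knockouts, and they were 84.6% of the 26 that fell there. The same overlap was not counted over all genes, so these shares have no background. Of all genes, 34.7% were called lower in controls and 35.6% in the labelled knockouts, and the difference of responses passed for 8.05%. Cdc6, Cdt1, Ccne2, Ccna2 and Prc1 passed as lower in controls alone, and Ccnb1, Ube2c, Cenpe and Nusap1 in the labelled knockouts alone. For none of these 9 genes did the difference between the responses itself pass the test.

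**Figure D1:**
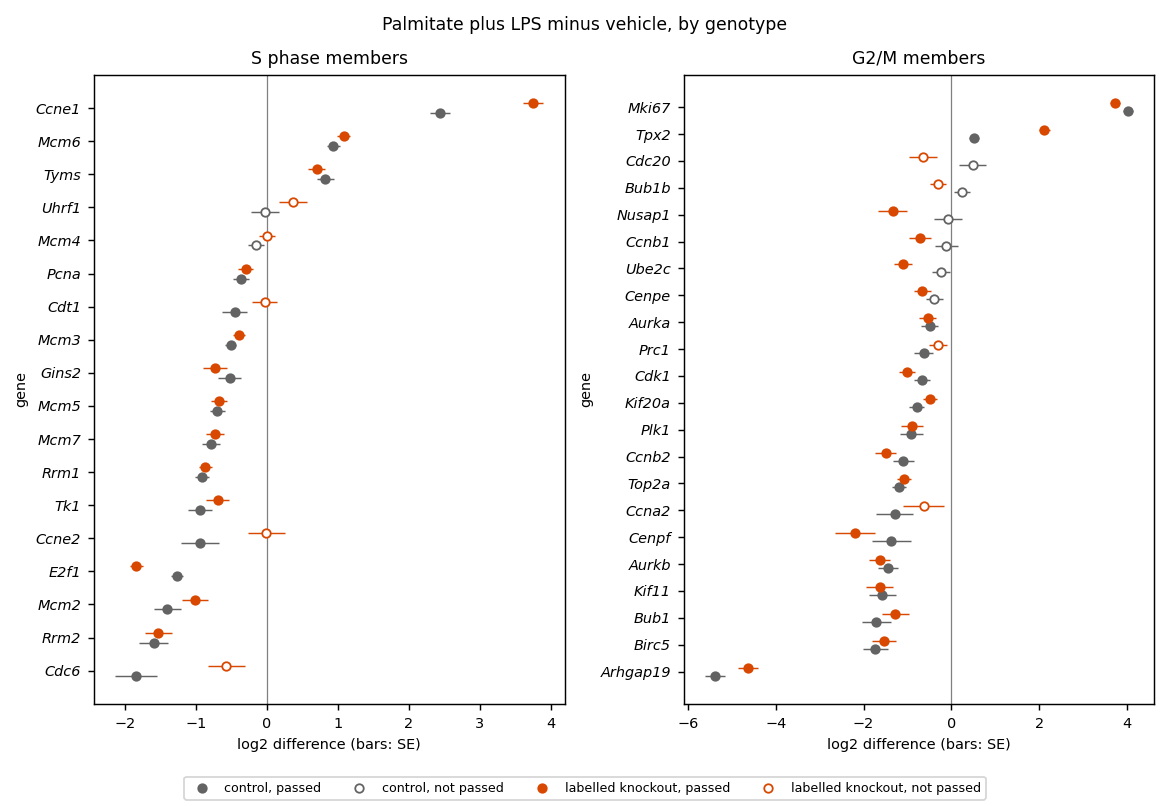
Log2 change of each member after palmitate plus LPS, with its SE, in the controls and the labelled knockouts (3 libraries a group); filled points passed edgeR's quasi-likelihood test at an adjusted p under 0.05. Most points lie below 0 in both phases, with Mki67 and Ccne1 far above it and Arhgap19 far below.

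Among the helicase genes, Mcm6 stood against the other subunits of the same ring. Mcm6 (chr1:128331590-128359664, minus strand) lay at 33.7, 34.2 and 34.4 CPM in the control vehicle libraries and at 64.5, 68.2 and 63.2 after palmitate plus LPS. The labelled knockouts had 28.5, 36.4 and 35.5 CPM in vehicle and 70.8, 67.4 and 75.0 after treatment. Every treated library lay above every vehicle library, and the log2 change was 0.94 ± 0.09 (SE; adjusted p = 2.26e-07, edgeR) in controls and 1.08 ± 0.09 (adjusted p = 3.65e-08) in the labelled knockouts. The partner subunits Mcm2, Mcm3, Mcm5 and Mcm7 fell in both genotypes, in controls by 1.40, 0.51, 0.70 and 0.79 on the log2 scale. Mcm4 passed in neither, with changes of -0.15 and 0.00. Gins2, of the GINS complex that joins the ring to the moving fork, fell by 0.53 and 0.73, but 67.3% of its exon bases are shared with Gse1 on the opposite strand. The strand setting of the counting is not given in the sources used here, so reads of such pairs cannot be told apart.

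Both loaders of the helicase passed as lower in controls only. Cdt1 lay at 22.9 ± 1.22 CPM (SD, n = 3) in control vehicle libraries and 16.7 ± 1.61 after treatment, a log2 change of -0.46 ± 0.18 (adjusted p = 0.0346, edgeR). Its labelled knockout vehicle libraries lay at 11.7, 19.8 and 24.5 CPM, with library 1 lowest, and the treated ones at 17.9, 18.8 and 18.4, inside that range. The Cdt1 call was lost without control vehicle library 1 or 3, without any single control treated library, and with DESeq2 (adjusted p up to 0.126). Cdc6, which recruits the helicase to origins, had 46, 51 and 29 counts in control vehicle libraries and 9, 12 and 6 after treatment, a fall of 1.85 ± 0.29 on the log2 scale (adjusted p = 3.98e-05). Among labelled knockouts it had 29, 38 and 36 counts in vehicle and 24, 16 and 15 after treatment, a log2 change of -0.57 ± 0.26 (adjusted p = 0.0639).

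Of the genes that supply nucleotides, 3 fell and 1 rose in both genotypes. Rrm1, the large subunit of ribonucleotide reductase (chr7:102441695-102469771, plus strand), lay at 36.6, 37.5 and 38.7 CPM in control vehicle libraries and at 20.6, 19.3 and 20.1 after treatment. Labelled knockout libraries lay at 34.1, 39.9 and 36.3 CPM in vehicle and at 22.7, 17.8 and 20.1 after treatment. The ranges were far apart, with log2 changes of -0.91 ± 0.10 (adjusted p = 5.09e-07, edgeR) and -0.86 ± 0.10 (adjusted p = 8.56e-07). Rrm2, the small subunit, fell by 1.59 and 1.53 on the log2 scale, and the thymidine kinase gene Tk1 by 0.94 and 0.69. Tyms, which makes thymidylate, rose instead. It lay at 10.2, 10.99 and 10.9 CPM in control vehicle libraries and 18.6, 18.6 and 19.7 after treatment, and at 14.2, 10.6 and 10.02 CPM and then 19.6, 19.2 and 17.7 in the labelled knockouts. Its log2 changes were 0.83 ± 0.12 (adjusted p = 1.47e-05, edgeR) and 0.70 ± 0.12 (adjusted p = 6.9e-05).

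Pcna fell least among the S phase members that fell. It lay at 39.8, 42.1 and 43.9 CPM in control vehicle libraries and 30.8, 34.4 and 32.5 after treatment. Its levels in the labelled knockouts were 54.9, 40.6 and 41.1 CPM, with library 1 highest, and 37.3, 37.0 and 36.9 after treatment. The log2 changes were -0.36 ± 0.11 and -0.30 ± 0.11, with adjusted p of 0.00691 and 0.0215 (edgeR). The labelled knockout call was lost without vehicle library 1 or treated library 2 or 3, and when only those 2 groups were fitted (adjusted p up to 0.0898). Its processed copy Pcna-ps2 had 7 to 25 counts a library. Uhrf1, which carries DNA methylation through copying, passed in neither genotype, at -0.03 and 0.36 on the log2 scale.

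The G1/S switch genes went opposite ways. Ccne1, cyclin E1, the partner of CDK2 at the entry to S phase (chr7:38097984-38107534, minus strand), lay at 2.35, 1.76 and 1.87 CPM in control vehicle libraries and at 12.1, 10.8 and 9.84 after palmitate plus LPS. Levels in the labelled knockouts were 1.62, 1.354 and 1.40 CPM in vehicle and 19.6, 19.0 and 20.3 after treatment. The 4 groups did not overlap, and Ccne1 rose 5.43-fold in controls (log2 2.44 ± 0.14, adjusted p = 2.21e-10, edgeR) and 13.5-fold in the labelled knockouts (log2 3.75 ± 0.14, adjusted p = 1.33e-12). Ccne2, cyclin E2, with 12 to 37 counts a library, fell by 0.94 in controls and had a log2 change of -0.01 in the labelled knockouts; Ints8 on the opposite strand shares 17.4% of its exon bases.

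E2f1, the factor that turns on many S phase genes (chr2:154559407-154569892, minus strand), fell in both genotypes. It lay at 32.5, 31.5 and 33.9 CPM in control vehicle libraries and at 13.2, 14.03 and 13.5 after treatment. The labelled knockouts lay at 37.8, 32.8 and 32.2 CPM in vehicle and at 9.71, 9.38 and 9.62 after treatment. Treated libraries lay far below vehicle libraries, with log2 changes of -1.27 ± 0.09 (adjusted p = 3.45e-09, edgeR) and -1.84 ± 0.09 (adjusted p = 4.19e-11).

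The largest rise of any member in controls was that of Mki67, which encodes Ki-67, the coat protein of mitotic chromosomes used to mark cycling cells (chr7:135689788-135716379, minus strand). It lay at 2.20, 2.18 and 2.12 CPM in control vehicle libraries and at 36.3, 30.97 and 38.3 after treatment, a 16.2-fold rise (log2 4.02 ± 0.12, adjusted p = 5.57e-14, edgeR). In the labelled knockouts it lay at 1.89, 2.07 and 1.90 CPM and then at 25.7, 27.6 and 24.5, a 13.2-fold rise (log2 3.72 ± 0.12, adjusted p = 1.93e-13). Top2a, the topoisomerase that untangles copied chromosomes and is often read together with Ki-67, fell in the same libraries. Its control values were 7.88, 9.26 and 7.73 CPM in vehicle and 4.21, 3.51 and 3.16 after treatment. Labelled knockout values were 6.60, 8.16 and 8.41 and then 3.94, 4.07 and 2.94. The log2 changes of Top2a were -1.19 ± 0.16 (adjusted p = 6.7e-06, edgeR) and -1.09 ± 0.16 (adjusted p = 1.87e-05).

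The largest fall in both genotypes was that of Arhgap19, which encodes a GTPase-activating protein for RhoA active in mitosis (chr19:41766588-41802084, minus strand). It lay at 53.8, 51.9 and 44.3 CPM in control vehicle libraries and at 1.37, 0.809 and 1.40 after treatment, 41.6-fold lower (log2 -5.38 ± 0.23, adjusted p = 7.87e-12, edgeR). Arhgap19 in the labelled knockouts lay at 23.7, 38.5 and 39.1 CPM, library 1 lowest, and at 1.76, 1.14 and 1.21 after treatment, 24.8-fold lower (log2 -4.63 ± 0.23, adjusted p = 4.11e-11). Vehicle and treated libraries did not overlap.

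**Figure D2:**
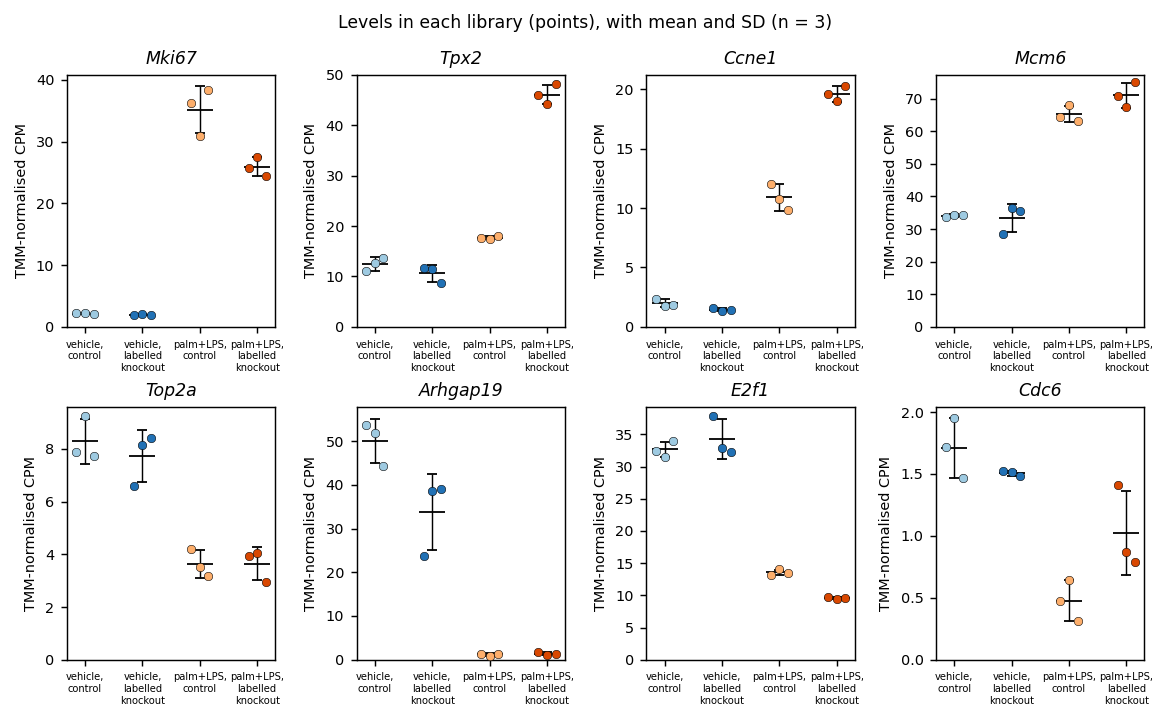
Level of 8 members in each library, in TMM-normalised CPM, by group (points), with the mean and SD (n = 3) in black; each panel has its own axis from 0. Mki67, Ccne1 and Mcm6 are higher in all treated libraries, Arhgap19, Top2a and E2f1 are lower, and Tpx2 is highest in the treated labelled knockouts, at 44.2 to 48.1 CPM.

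Tpx2, which activates Aurora A and builds the spindle (chr2:152847964-152895321, plus strand), rose in both genotypes and by different amounts. It lay at 11.02, 12.6 and 13.7 CPM in control vehicle libraries and at 17.7, 17.5 and 17.98 after treatment. Labelled knockout levels were 11.7, 11.5 and 8.70 CPM in vehicle and 45.9, 44.2 and 48.1 after treatment. The rise was 1.43-fold in controls (log2 0.51 ± 0.11, adjusted p = 0.000991, edgeR) and 4.34-fold in the labelled knockouts (log2 2.12 ± 0.11, adjusted p = 1.13e-10). The call in controls was lost when libraries were scaled by total counts (adjusted p = 0.136). The kinase that Tpx2 activates, Aurka, fell by 0.49 and 0.54 on the log2 scale. Its call in controls was lost without library 1 or 3 of either treatment, with the replicate block and with DESeq2 (adjusted p up to 0.183), and that in the labelled knockouts without treated library 3 (adjusted p = 0.0798).

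The remaining spindle and cytokinesis members were lower or not called. The spindle motor Kif11 fell by 1.58 and 1.63 on the log2 scale, and Kif20a, a motor of the cleavage midzone, by 0.79 and 0.49. Kif20a shares 33.2% of its exon bases with Cdc23 on the opposite strand, and its labelled knockout call was lost without vehicle library 2 or treated library 2 or 3 (adjusted p up to 0.0768). The midzone bundler Prc1 fell by 0.63 in controls, with a log2 change of -0.30 in the labelled knockouts; the call was lost without vehicle library 3 or treated library 1 or 2 (adjusted p up to 0.068). Nusap1, a spindle-binding protein, fell by 1.34 in the labelled knockouts, with a log2 change of -0.08 in controls.

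The mitotic kinases fell, apart from Bub1b. Cdk1, the kinase that starts mitosis, lay at 6.01, 6.16 and 6.21 CPM in control vehicle libraries and at 3.26, 4.26 and 4.04 after treatment. Cdk1 in the labelled knockouts lay at 8.81, 6.09 and 5.11 CPM and then at 3.82, 3.09 and 2.94. These ranges did not overlap within a genotype, and the log2 changes were -0.67 ± 0.19 (adjusted p = 0.00512, edgeR) and -1.01 ± 0.19 (adjusted p = 0.000216). Aurkb, the kinase of the chromosomal passenger complex, lay at 4.22, 5.13 and 4.24 CPM in control vehicle libraries and 1.84, 1.73 and 1.451 after treatment, a fall of 1.44 on the log2 scale (adjusted p = 3.73e-05, edgeR). Its labelled knockout values were 4.98, 4.54 and 3.42 CPM and then 2.0003, 1.30 and 0.893, a fall of 1.63 (adjusted p = 1.57e-05). Plk1 fell by 0.91 and 0.90, and the checkpoint kinase Bub1 by 1.71 and 1.28. Bub1b, which encodes the checkpoint protein BubR1, lay at 5.42, 5.17 and 5.25 CPM in control vehicle libraries and at 6.32, 5.396 and 6.99 after treatment, with a log2 change of 0.24 ± 0.18 (adjusted p = 0.241, edgeR). In the labelled knockouts it lay at 3.98, 6.81 and 4.99 CPM and then at 4.88, 4.50 and 3.57 (log2 -0.30 ± 0.19, adjusted p = 0.162), and the ranges overlapped.

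Among the mitotic cyclins, Ccnb2 (cyclin B2) fell in both genotypes, with log2 changes of -1.09 and -1.495. Ccnb1 (cyclin B1) had a log2 change of -0.11 in controls and fell by 0.72 in the labelled knockouts, a call lost without vehicle library 3 or treated library 2 and with DESeq2 (adjusted p up to 0.0724). Ccna2, cyclin A2, fell by 1.29 in controls, from 18 to 33 counts in vehicle libraries to 3 to 11 after treatment, with a log2 change of -0.63 in the labelled knockouts. Exosc9 on the opposite strand, with 603 to 862 counts, shares 14.6% of the exon bases of Ccna2, so its few counts are uncertain. The Ccna2 call was lost without control vehicle library 2 or treated library 3 (adjusted p up to 0.0721).

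Of the genes for degradation at mitotic exit, neither passed in controls. Ube2c, the ubiquitin-conjugating enzyme of the anaphase-promoting complex, lay at 1.90, 1.95 and 2.07 CPM in control vehicle libraries and 1.26, 1.997 and 1.76 after treatment (log2 -0.24 ± 0.21, adjusted p = 0.331, edgeR). In the labelled knockouts it lay at 3.62, 2.47 and 2.68 CPM and then at 1.353, 1.36 and 1.31, a fall of 1.11 ± 0.21 (adjusted p = 0.000217). Cdc20, its activator, had 7 to 25 counts a library and passed in neither genotype, with log2 changes of 0.48 and -0.64. The kinetochore motor Cenpe lay at 2.28, 2.53 and 2.27 CPM in control vehicle libraries and 1.63, 1.62 and 2.12 after treatment (log2 -0.40 ± 0.19, adjusted p = 0.0838, edgeR). In the labelled knockouts it lay at 3.20, 3.03 and 3.05 CPM and then at 1.82, 2.49 and 1.52, a fall of 0.66 ± 0.19 (adjusted p = 0.00544). Cenpf, a kinetochore protein, fell by 1.37 and 2.20, and Birc5, the passenger protein survivin, by 1.73 and 1.54. The Cenpf call in controls was lost without treated library 2 or 3 (adjusted p up to 0.0575).

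Summed over each phase, the levels fell less than most members did. The 18 S phase members summed to 302 ± 6.08 CPM (SD, n = 3) in control vehicle libraries and 258 ± 3.13 after treatment, and to 297 ± 3.39 and 278 ± 11.4 CPM in the labelled knockouts. The 22 G2/M members summed to 123 ± 4.30 and 90.2 ± 3.83 CPM in controls, and to 111 ± 8.71 and 108 ± 5.10 in the labelled knockouts. A few genes made up much of the G2/M sum. Arhgap19 was 40.7% of it in control vehicle libraries and 1.31% after treatment, while Mki67 and Tpx2 together went from 11.9% to 58.6%. In the labelled knockouts Arhgap19 went from 30.5% to 1.26%, and Mki67 and Tpx2 from 11.4% to 66.6%. Without Mki67, Tpx2 and Arhgap19, which were chosen after their values were seen, the G2/M sum was 58.1 ± 2.08 and 36.1 ± 0.957 CPM in controls, and 64.3 ± 6.76 and 34.9 ± 5.30 in the labelled knockouts. The S phase sum without Ccne1, Mcm6 and Tyms, chosen in the same way, was 255 and 162 CPM in controls and 251 and 169 in the labelled knockouts. The ratio of the S phase to the G2/M sum was 2.46 ± 0.131 and 2.86 ± 0.156 in controls and 2.70 ± 0.184 and 2.57 ± 0.135 in the labelled knockouts; these sums were not tested.

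**Figure D3:**
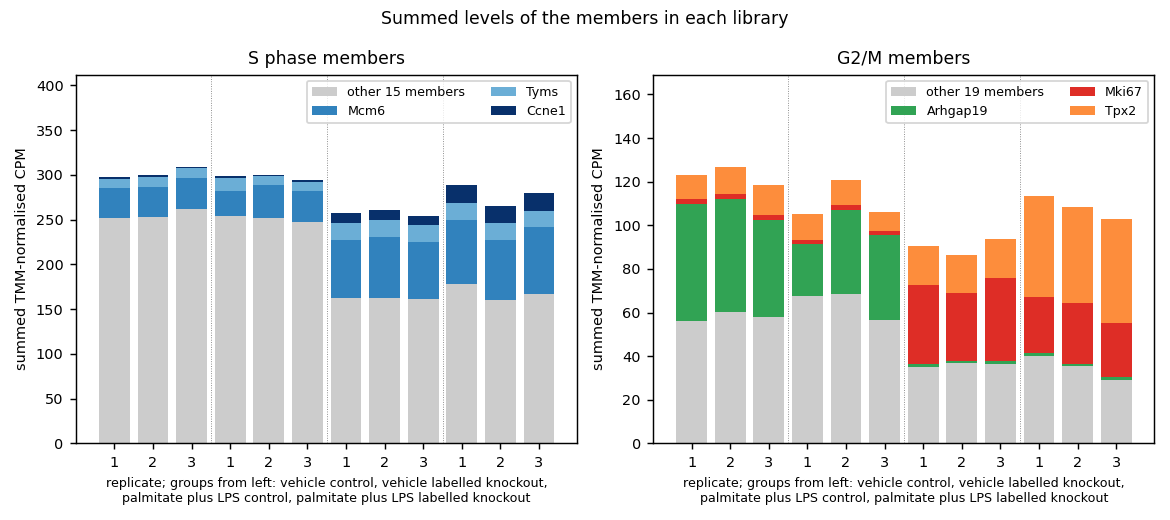
Summed TMM-normalised CPM of the 18 S phase and of the 22 G2/M members in each library (stacked bars from 0), with 3 named genes of each phase in colour and the other members in grey. In the G2/M panel Arhgap19 makes up 40.7% of the bar in control vehicle libraries, and Mki67 with Tpx2 58.6% after treatment.

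In vehicle, no member passed the test between genotypes. The count was 0 of 40 with edgeR's quasi-likelihood test and 0 with DESeq2. With edgeR 3.80% of all genes tested were called, 2.11% as higher and 1.69% as lower. An unadjusted p under 0.05 (edgeR) was found for 6 of the 40 members and for 2064 of all 12914 genes tested. The libraries of the genotypes did not overlap for 10 members, against 19.8% of all genes. The median log2 difference, labelled knockouts minus controls, was -0.06 for S phase and 0.10 for G2/M members. Arhgap19 came nearest, with the vehicle values given above and a log2 difference of -0.56 ± 0.16 (adjusted p = 0.072, edgeR). Without labelled knockout vehicle library 1, its lowest library, it was called lower (log2 -0.37), as it was without library 3 of that group (log2 -0.68). Ccne1 had a log2 difference of -0.46 ± 0.17 (adjusted p = 0.18), with the groups apart by a small gap, and E2f1 of 0.07 ± 0.08 (adjusted p = 0.702).

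After palmitate plus LPS, 5 of the 40 members differed between genotypes, or 12.5%, where 16.1% of all genes tested were called. Tpx2, Ccne1 and Cdc6 were higher in the labelled knockouts and E2f1 and Mki67 were lower; over all genes 10.0% were called higher and 6.10% lower. The libraries of the genotypes did not overlap for 13 of the 40 members, against 42.2% of all genes. Tpx2 was 2.60-fold higher (log2 1.38 ± 0.11, adjusted p = 1.09e-06, edgeR), at 44.2 to 48.1 CPM against 17.5 to 17.98. Ccne1 was 1.80-fold higher (log2 0.85 ± 0.11, adjusted p = 0.000123), at 19.0 to 20.3 against 9.84 to 12.1 CPM. E2f1 had a log2 difference of -0.50 ± 0.10 (adjusted p = 0.00203), at 9.38 to 9.71 against 13.2 to 14.03 CPM. Mki67 had a log2 difference of -0.44 ± 0.09 (adjusted p = 0.00486), at 24.5 to 27.6 against 30.97 to 38.3 CPM. For each of these genes the 3 labelled knockout libraries lay on the same side of the 3 control libraries. The Cdc6 call (log2 1.08 ± 0.33, adjusted p = 0.0358) rests on 6 to 24 counts a library, and it was lost without control treated library 1 or 3 or labelled knockout treated library 1 or 2 (adjusted p up to 0.167). The sum of 15 fibroblast and mesothelial markers, itself not tested, was 267 ± 77.3 CPM in the labelled knockouts and 153 ± 13.2 in the controls (178 and 134 CPM in vehicle). The treated labelled knockout libraries lay at 352, 201 and 248 CPM, with library 1 highest. Dcn, Col1a1 and Col1a2 made up most of that sum, with means of 91.2, 66.6 and 55.6 CPM. Of the 13 markers that passed the filter, 6 were called higher and 0 lower in the labelled knockouts after treatment. The treated mean of Pdgfrb was lower there, but it was not called. Over all genes, 10.0% were called higher and 6.10% lower. The part of those cells in the differences was not tested.

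**Figure D4:**
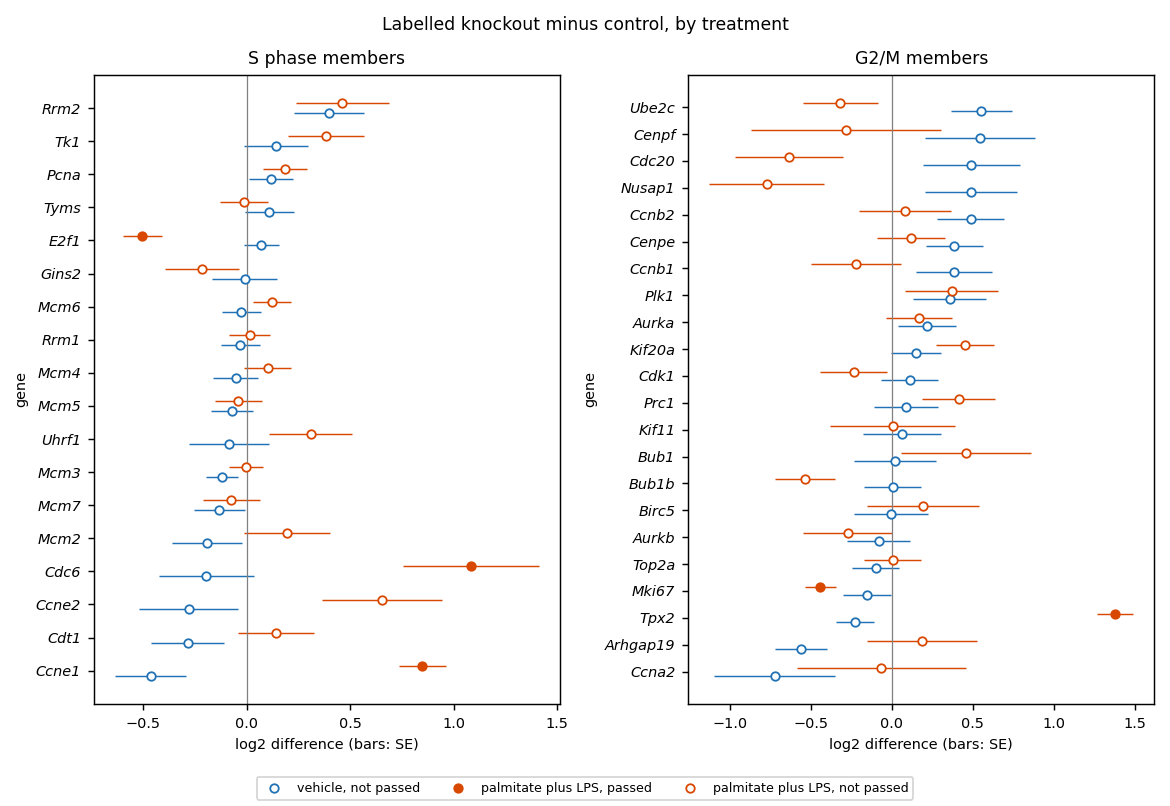
Log2 difference of each member between labelled knockouts and controls, with its SE, in vehicle and after palmitate plus LPS (3 libraries a group); filled points passed edgeR's quasi-likelihood test at an adjusted p under 0.05. No vehicle point is filled; after treatment Tpx2, Ccne1 and Cdc6 lie above 0 and E2f1 and Mki67 below.

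The response itself differed between genotypes for 3 members, or 7.5%, where 8.05% of all genes tested were called, 4.70% with a positive and 3.35% with a negative difference. The rise of Tpx2 was larger in the labelled knockouts by 1.61 ± 0.16 on the log2 scale (adjusted p = 4.33e-05, edgeR), and that of Ccne1 by 1.31 ± 0.21 (adjusted p = 0.00188). The change of E2f1 differed by -0.57 ± 0.13 (adjusted p = 0.0139), a larger fall in the labelled knockouts; without control vehicle library 2 the adjusted p was 0.0503. Mki67, which differed between genotypes after treatment, did not pass here, at -0.29 ± 0.18 (adjusted p = 0.301). Nor did Cdc6 at 1.28 ± 0.40 (adjusted p = 0.0626), Nusap1 at -1.26 ± 0.46 (adjusted p = 0.0976) or Ube2c at -0.87 ± 0.30 (adjusted p = 0.0837). The median difference of the responses was 0.13 for S phase and -0.12 for G2/M members on the log2 scale. Tpx2 is a G2/M gene and Ccne1 an S phase gene, so both phases held a member with a larger rise.

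Among other genes of replication and mitosis, falls also outnumbered rises, against a background of 34.7% lower and 32.0% higher in controls and 35.6% and 33.7% in the labelled knockouts. Of 64 tested genes of DNA replication that are not members, 33 fell and 11 rose in controls, and 29 fell and 13 rose in the labelled knockouts. Those that rose included Timeless, of the fork protection complex, from 2.89 ± 0.342 to 13.0 ± 2.498 CPM in controls (SD, n = 3), the helicase gene Mcm9 from 2.80 to 8.48, and Pola2, of the primase complex, from 5.86 to 21.6. E2f2, an activator E2F, fell furthest, from 2.61 ± 0.520 to 0.141 ± 0.031 CPM (log2 -4.17). Of 73 tested genes of mitosis, 50 fell and 7 rose in controls, and 48 fell and 9 rose in the labelled knockouts. Cenpa, the centromeric histone, fell from 8.87 ± 0.322 to 0.881 ± 0.144 CPM in controls, and the CDK1-activating phosphatase gene Cdc25b from 8.76 to 1.22. Pttg1, which encodes securin, rose from 34.2 ± 0.354 to 125 ± 14.9 CPM, and the cyclin F gene Ccnf from 6.23 to 19.3. Between genotypes after treatment, 6 of the replication genes were called higher and 5 lower in the labelled knockouts, and 4 and 3 of the mitosis genes. These are 17.2% and 9.59% of each list, where 16.1% of all genes tested were called.

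Among 39 tested RB, E2F and DREAM regulators and CDK inhibitors, 17 rose and 16 fell in controls, and 16 rose and 14 fell in the labelled knockouts. That is 43.6% higher and 41.0% lower in controls, where all genes gave 32.0% and 34.7%, and 41.0% and 35.9% in the labelled knockouts, where all genes gave 33.7% and 35.6%. Cdkn1a, which encodes the CDK inhibitor p21, rose from 89.5 ± 2.15 to 709 ± 31.9 CPM in controls and from 91.3 ± 7.65 to 853 ± 41.3 in the labelled knockouts (log2 2.99 and 3.22). Ccnd2, cyclin D2, rose from 1.25 to 69.1 CPM in controls and from 1.70 to 92.3 in the labelled knockouts, and Rbl1, the RB relative p107, from 6.37 to 23.2 and from 6.46 to 39.0. Cdkn2c, the inhibitor p18, fell from 5.38 to 0.560 CPM in controls, and Mxd4, a MAX partner, from 27.3 to 5.11. Between genotypes Cdkn1c, the inhibitor p57, was lower in the labelled knockouts in vehicle, at 43.5 ± 11.1 against 124 ± 2.98 CPM (log2 -1.51 ± 0.14, adjusted p = 9.31e-06, edgeR), and after treatment, at 18.6 ± 0.537 against 59.2 ± 8.64 CPM. After treatment 6 regulators were called higher and 4 lower in the labelled knockouts, or 25.6% of the list, where 16.1% of all genes were called.

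Markers of other cells moved with some of these groups. The summed level of 10 T and NK cell markers went from 2.73 and 3.48 CPM in vehicle (controls and labelled knockouts) to 17.9 and 20.3 after treatment, nearly all of it from Lck, while Cd3e, Cd3d and Cd3g reached at most 0.162 CPM in any library. The 8 markers of large peritoneal macrophages summed to 91.9 and 104 CPM in vehicle and to 61.9 and 65.1 after treatment. Single markers moved both ways, with 5 of the 8 called lower and 2 higher after treatment in each genotype. Over all genes, 34.7% were called lower and 32.0% higher in controls, and 35.6% and 33.7% in the labelled knockouts. The mean of Cd5l went from 39.05 and 46.4 CPM to 14.24 and 18.7. Means of Cxcl13 rose from 14.3 and 14.6 CPM to 22.8 and 23.5, and those of Timd4 from 1.496 and 1.777 to 4.01 and 5.302. The 10 neutrophil markers, of which 5 passed the filter, summed to 79.2 and 113 CPM in vehicle and to 111 and 155 after treatment. Between genotypes 2 of these 5 were called higher in the labelled knockouts in vehicle, and 2 higher and 1 lower after treatment. Over all genes, 2.11% were called higher and 1.69% lower in vehicle, and 10.0% higher and 6.10% lower after treatment. Csf3r, the receptor for G-CSF, lay at 57.2 and 63.0 CPM in vehicle and at 90.6 and 136 after treatment. Mmp8, neutrophil collagenase, lay at 16.4 and 43.7 CPM and then at 4.75 and 10.8. S100a8 lay at 4.99 and 5.24 CPM in vehicle and at 14.99 and 6.93 after treatment, lower in the labelled knockouts. The treated means of Camp (0.777 and 0.482 CPM) and Cxcr2 (0.0351 and 0.0196) were also lower in the labelled knockouts. At most 1 of S100a8, Camp and Cxcr2 was called lower there. Cxcr2 had no count in 4 of the 12 libraries, and its vehicle means were 0.400 and 1.18 CPM, higher in the labelled knockouts. Ly6g, a defining neutrophil marker, had no count in any of the 12 libraries, and S100a9 had none in 11. The part of these cells in the changes of the members was not tested.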

How the data were processed

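Per the submitters' processing notes, bcl2fastq 2.0, STAR 2.0.4b, Subread and featureCounts 1.45 were used with the mouse build GRCm38. The settings of these tools, the gene annotation and the handling of strand were not given in the sources used here. Per the labels' protocols, RNA was column-purified and the kit was SMARTer v1. Each deposited table gave the authors' raw count per gene and the deposited CPM and RPKM (scaled to the library's total, and per kilobase of exon), which were not tested. Counts were filtered with filterByExpr, scaled by TMM and tested with edgeR 4.0.16 (R 4.3.3) in quasi-likelihood fits of all 12 libraries with 1 mean per group, adjusted by Benjamini-Hochberg over the 12914 genes tested, with a threshold of 0.05. Folds of tested genes are fitted ratios. The SE of a log2 change was worked back from the test, as its absolute value divided by the square root of the F statistic. The scripts were tested on simulated data. Alternatives were DESeq2 1.42.0, other scalings and filters, a replicate block, fits of 2 groups, and leaving out each library.

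The members and lists were chosen with earlier results of these data known. Values in every library are given for the member of highest mean CPM in each role, for members called between genotypes or in the difference of responses, and, in each response, for up to 4 members of each phase with the smallest p and up to 3 called against most of their phase. Of other pathway lists, genes were named from up to 4 a direction with the smallest p in a comparison. Coordinates are as deposited (GRCm38); promoter windows are RefSeq's.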

Additional observations from a re-analysis of the deposited data

Results flagged for a closer look

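These genes differed between genotypes in their response to palmitate plus LPS, as the log2 response of the labelled knockouts minus that of the controls (edgeR's quasi-likelihood test, adjusted over all genes). Among the members, Tpx2 differed by 1.61 (adjusted p = 4.33e-05), Ccne1 by 1.31 (adjusted p = 0.00188) and E2f1 by -0.57 (adjusted p = 0.0139). Among replication genes that are not members, Pold3, a subunit of DNA polymerase delta, differed by 0.64 (adjusted p = 0.0016) and Rfc3, of the clamp loader, by 0.47 (adjusted p = 0.0493). Among mitosis genes, the spindle checkpoint gene Mad2l1 differed by -0.88 (adjusted p = 0.0152) and Cdca8, the passenger protein borealin, by -1.01 (adjusted p = 0.0267). Among the RB, E2F and DREAM regulators, Rbl1 differed by 0.73 (adjusted p = 0.0103) and Mxd4 by -0.92 (adjusted p = 0.0229). The genes called were 7.5% of the members, 3.1% of the replication genes, 2.7% of the mitosis genes and 5.1% of the regulators tested. Each share lay below the 8.05% of all genes called. Over 18 alternatives that gave a value, the call was lost in 14 for Rfc3 (adjusted p up to 0.1215), in 7 for Mxd4 (up to 0.0768) and in 6 for Cdca8 (up to 0.0757), the replicate block among them for each. The calls of Mad2l1 (adjusted p = 0.0532) and E2f1 (0.0503) were lost only without control vehicle library 2, and those of Tpx2, Ccne1, Pold3 and Rbl1 in 0 of the 18. Causes were not tested.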

How the results depend on the processing

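Of 71 calls of members, 59 passed in the same direction under all 19 alternatives that gave a value, 12 were lost in at least 1 and 0 reversed. Without the low-count filter, the count of G2/M members called was 1 between genotypes in vehicle (0 with it), 4 after treatment (2 with it) and 2 in the difference of responses (1 with it); fits of only 2 groups also gave 4 after treatment. Of all 24792 genes fitted without the filter, 960 were called in vehicle, 2561 after treatment and 1875 in the difference. The 2-group fit called 3811 of 11743 genes after treatment. Leaving out each library gave 0 to 2 G2/M members in vehicle, and, in the difference of responses, 1 to 3 S phase and 1 to 2 G2/M members. Of the 13113 to 13184 genes in those fits, 261 to 789 were called in vehicle and 427 to 1962 in the difference. The vehicle difference of E2f1, 0.07, which never passed, was -0.0026 without labelled knockout vehicle library 1 and 0.11 without library 3 of that group. Total-count scaling moved the median of all genes to -0.38 in controls and -0.42 in the labelled knockouts, and gave sums of 347, 331, 235 and 239 CPM for S phase and 141, 123, 82.3 and 93.2 for G2/M members (control and labelled knockout vehicle, then treated). The causes were not tested.

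Same-numbered libraries did not deviate together: correlations of their deviations were -0.175 to 0.067. Deviations from a mean of 3 libraries also hold the noise of each library, so they cannot show whether the numbers pair libraries. With the replicate number as a block, the counts of members called were 0 and 0 (S phase, G2/M) in vehicle, 3 and 2 after treatment, 16 and 15 for the response in controls, 13 and 18 in the labelled knockouts, and 2 and 1 for the difference. Over all 12914 genes tested, the block moved the calls from 491 to 349 in vehicle and from 2081 to 1549 after treatment. For the responses they moved from 8612 to 8374 in controls and from 8956 to 8724 in the labelled knockouts. For the difference of responses they moved from 1039 to 514. Low counts of Ccna2, Cenpf, Cdc6, Cdc20 and Ccne2 limit their precision.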
